A study of Mus musculus with 1016 samples.

Results

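The genes examined here are Gata6, Gata4, Sox17, Sox7, Foxa2, Pdgfra, Col4a1 and Col4a2, which were chosen by name and position as genes of the primitive endoderm. They are 8 of 20807 protein-coding genes on chromosomes 1 to 19 of GRCm38 (mm10). The readout is replication timing (RT) from single-cell Repli-seq, in which DNA of single S-phase cells is sequenced and each 50 kb bin is marked as replicated or not replicated. For each gene the bins that overlap it and 0.3 Mb on either side form its window, and all 8 windows were found in all 14 groups. No RNA was measured in these tables, so whether any of the cells expressed these genes cannot be told from them.

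The primitive endoderm is an epithelium that separates from the epiblast within the inner cell mass (ICM) of the mouse blastocyst and later gives rise to the endoderm of the yolk sac. Gata6 is needed for this fate, and Gata4, Sox17, Sox7 and Foxa2 encode transcription factors that act in the same lineage. Pdgfra is a receptor tyrosine kinase present on these cells, and Col4a1 and Col4a2 encode chains of type IV collagen, a product of the lineage deposited in its basement membrane rather than a regulator of it. Replication timing is the order in which genomic regions are copied during S phase, and in differentiated cells early replication is often found together with open chromatin and transcription.

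Groups came from embryos of (C57BL/6J x CBA) females and DBA/2J males. The natural series ran from zygotes through the cleavage stages (2-cell to 16-cell) and morulae to the ICM, collected between 20 and 104 h after hCG injection. Zygotes from in vitro fertilization (IVF zygotes) had the same parents, and parthenotes were (C57BL/6J x CBA)F1 oocytes activated with 10 mM Sr2+ for 2 h and so lack a paternal genome. Single maternal ((C57BL/6J x CBA)F1) and paternal (DBA/2J) pronuclei came from zygotes at 21 to 25 h. By the methods, a pronucleus was isolated, and the rest of the zygote, holding the other pronucleus, was collected too. In 3 further groups 2-cell embryos were treated with 0.1 mg/ml α-amanitin or with 100 µM DRB from 17 h, which block transcription by RNA polymerase II, or came from zygotes injected at 18 h with 2 µg/µl mRNA of Kdm5b, a demethylase of H3K4me3. For those 3 the untreated 2-cell embryos were the common control. The deposited states of the control, α-amanitin and DRB cells carry different dates, whose meaning is not given. Treatment and date therefore cannot be told apart. No group of control injection was used here.

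Replication states were deposited for 733 cells, of which 714 had between 10 and 90 percent of their bins replicated (the replication score) and were used. The groups held 70 ICM, 67 DRB, 66 zygote, 63 2-cell, 57 IVF zygote, 57 parthenote, 56 8-cell, 56 KDM5B, 55 4-cell, 47 morula, 42 α-amanitin and 40 16-cell cells, and 21 maternal and 17 paternal pronuclei. Mean scores ran from 40.8 in 4-cell embryos to 61.1 in IVF zygotes. Because the labels name no embryo or litter for a cell, each group was treated as a single sample, no test was made, and the intervals given are exact (Clopper-Pearson) 95% binomial intervals of a share of cells, which cover counting error only. RT is the share of cells with a bin replicated, averaged over 16 intervals of replication score so that groups sampled at different points of S phase can be set side by side, and runs from 0 (late) to 1 (early), with 0.5 and over called early. A difference of at least 0.2 in RT is called earlier or later by size alone.

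The 8 genes lie in 6 regions of the genome. Gata6 is at chr18:11052064-11085635, Sox17 at chr1:4490931-4497354, Foxa2 at chr2:148042877-148046969 and Pdgfra at chr5:75152292-75198215. Gata4 (chr14:63198922-63271692) and Sox7 (chr14:63943673-63950732) are neighbours with 0.672 Mb between them and windows that do not overlap. Col4a1 (chr8:11198423-11312826) and Col4a2 (chr8:11312805-11449287) stand head to head, and 13 bins belong to the windows of both, so they are close to a single measurement. Foxa2 is the only protein-coding gene of its window, Gata6 shares its window with Mib1, and the Gata4 window holds 14 genes against a median of 12 over all genes. The GC content of the windows ran from 40.2% at Sox17 to 48.1% at Col4a2, on either side of the median of 44.4% for all genes.

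Across the natural stages most of the genes replicated early, as did most of all protein-coding genes. The share of all genes with an RT of 0.5 or more ran from 54.5% in 2-cell embryos to 80.2% in morulae. Of the genes examined, 7 lay above the median of all genes in zygotes and in 2-cell embryos, and 3 did in morulae. RT was 0.5 or more in all 7 stages for Gata6, Gata4, Sox7, Pdgfra, Col4a1 and Col4a2, in 3 stages for Sox17 and in 2 for Foxa2. In the ICM, where the primitive endoderm arises, RT was 0.715 for Gata4, 0.685 for Gata6, 0.643 for Sox7, 0.592 for Sox17, 0.576 for Pdgfra, 0.561 for Col4a1, 0.556 for Col4a2 and 0.464 for Foxa2, against a median of 0.567 over all genes. The share of ICM cells with the gene replicated was highest for Gata4 at 75.4% (63.5 to 84.9) and lowest for Foxa2 at 47.1% (35.1 to 59.4), and neighbours in this order overlapped in their intervals. ICM cells contain both epiblast and primitive endoderm, which the labels do not separate.

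**Figure D1:**
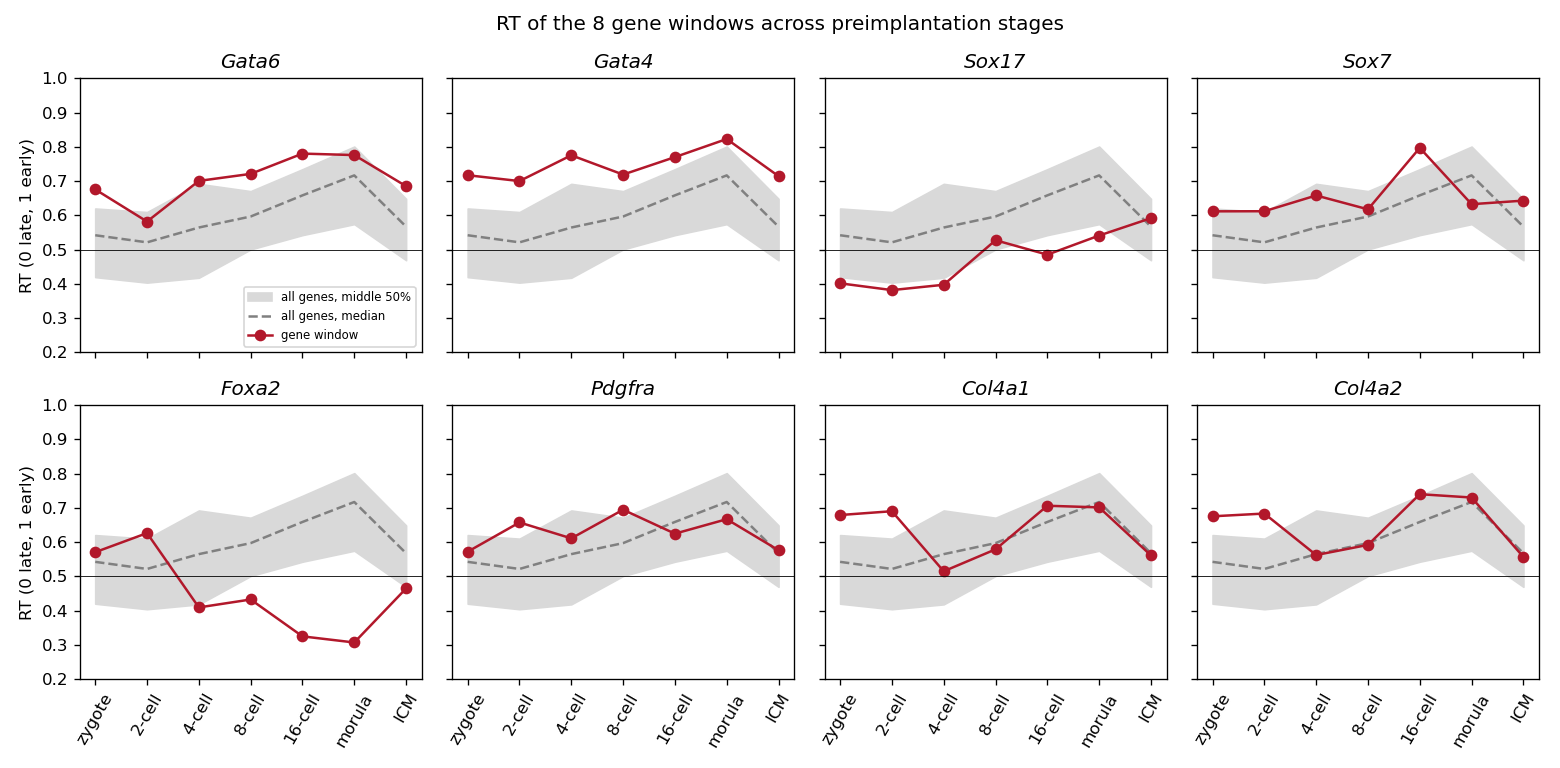
RT of the window of each gene (red points and line, 0 late to 1 early) in the 7 natural stages in order of development, with the median (dashed) and the middle 50% (grey) of all protein-coding genes. Foxa2 fell below the grey band from the 4-cell stage to the ICM, whereas Gata4 lay between 0.700 and 0.823 throughout.

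Gata4 and Gata6 encode zinc finger factors of the same family, and Gata4 was the earliest member in zygotes, 2-cell, 4-cell and morula embryos and the ICM. RT of Gata4 was 0.717, 0.700, 0.776, 0.719, 0.770, 0.823 and 0.715 from zygote to ICM, a span of 0.123 that is smaller than the span of all but 3.64% of genes. It was above the RT of 82.3% of genes or more in every stage. RT of Gata6 was 0.676 in zygotes, 0.582 in 2-cell, 0.701 in 4-cell, 0.721 in 8-cell, 0.780 in 16-cell and 0.776 in morula embryos and 0.685 in the ICM. It was replicated in 40 of 46 morula cells (87%, 73.7 to 95.1), against 35 of 63 cells in 2-cell embryos (55.6%, 42.5 to 68.1), where its RT was lowest. Gata6 and Gata4 had the same state in 44 of 46 morula cells and in 35 of 63 2-cell cells. With both genes replicated in most morula cells, many cells have the same state from these shares alone. Agreement beyond that was not tested. The 9 cells of the 16-cell group collected at 77 h had a mean score of 33.4 and stood apart: without them RT at the 16-cell stage was 0.965 for Gata6 and 0.945 for Gata4.

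Sox17 and Sox7 encode SOX factors of the same subgroup, and their timing differed. Sox17 was late in zygotes (0.402), 2-cell (0.382) and 4-cell embryos (0.397), near 0.5 in 8-cell (0.528) and 16-cell embryos (0.485), and early in morulae (0.541) and the ICM (0.592). In 2-cell embryos 20 of 63 cells had replicated it (31.7%, 20.6 to 44.7), the lowest share of the 8 genes. Among all genes Sox17 stood at percentile 21.4 in 2-cell embryos and 21.6 in morulae, later than most genes at both stages. In the ICM it stood at percentile 57.1. Sox7 was early in all 7 stages, from 0.612 in zygotes to 0.797 in 16-cell embryos, and 0.924 in 16-cell embryos without the cells of 77 h. Over the 14 groups Sox7 was closer to its neighbour Gata4 than to Sox17: the mean absolute difference in RT was 0.101 between Sox7 and Gata4 and 0.158 between Sox7 and Sox17. Pdgfra (0.0916) and Gata6 (0.0962), on other chromosomes, were closer to Sox7 than Gata4 was. In single cells Gata4 and Sox7 were in the same state in 530 of 699 (75.8%), and in cells where they differed Gata4 alone was replicated in 130 and Sox7 alone in 39. Gata6 and Gata4, on different chromosomes, were in the same state in 496 of 707 (70.2%).

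Foxa2, a forkhead factor of endoderm, was later in the cleavage stages after the 2-cell stage while the median gene was earlier. RT was 0.570 in zygotes and 0.626 in 2-cell embryos, then 0.409, 0.432, 0.325 and 0.307 in 4-cell, 8-cell, 16-cell and morula embryos, and 0.464 in the ICM. Its place among all genes was percentile 8.43 in morulae and 79.7 in 2-cell embryos. Foxa2 was replicated in 16 of 47 morula cells (34%, 20.9 to 49.3) and in 38 of 63 2-cell cells (60.3%, 47.2 to 72.4), and these intervals overlap slightly. Among cells with a score of 50 to 90, 13 of 31 morula cells and 23 of 32 2-cell cells had replicated it, where the other members were replicated in 27 to 30 of 31 morula cells, and among cells with a lower score 3 of 16 and 15 of 31 had. A morula cell that had copied 81.7% of its genome still had Foxa2 unreplicated.

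**Figure D2:**
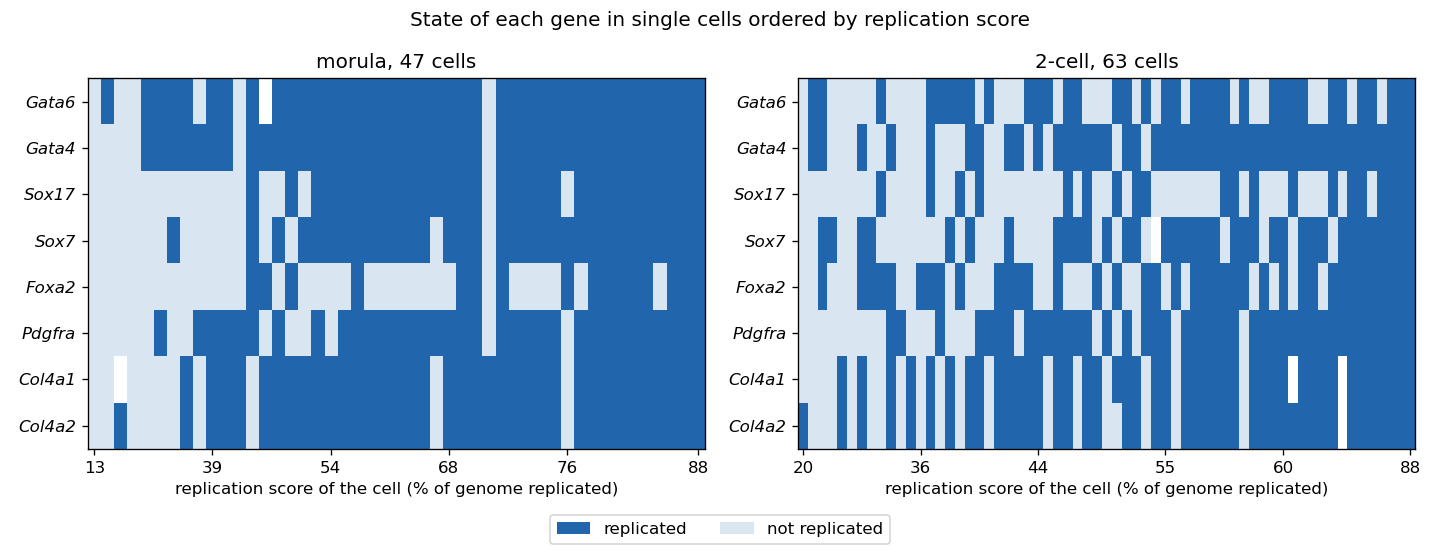
State of each gene (rows; dark, replicated; pale, not replicated; white, no call) in single morula cells (left) and 2-cell cells (right), ordered by replication score from left to right. In morulae Foxa2 was unreplicated in most cells up to high scores, with 16 of 47 cells replicated, whereas Gata4 was replicated in 41 of 47.

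Pdgfra, the receptor, was early at all stages, with RT between 0.572 in zygotes and 0.694 in 8-cell embryos. Its span of 0.123 was again among the smallest of all genes (percentile 3.61), and it lay at percentile 39.5 in morulae and 87.7 in 2-cell embryos. Kit and Kdr, receptor genes next to it on chromosome 5, had RT of 0.610 and 0.610 in morulae and 0.625 and 0.622 in 2-cell embryos. Pdgfa, which encodes a ligand of the receptor, was early in morulae (0.740) and late in 2-cell embryos (0.335).

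The start region of Col4a1 and Col4a2 is shown because it holds the start sites of both genes, which lie within a single bin. It covers chr8:11312555-11312854 on the plus strand of GRCm38 (RefSeq), with the annotated start of Col4a2 at the left end and that of Col4a1, transcribed to the left, at the right end of the 22 bases in capitals. Only 21 bases separate the start sites, far below the 50 kb of a bin.
Col4a2 start region: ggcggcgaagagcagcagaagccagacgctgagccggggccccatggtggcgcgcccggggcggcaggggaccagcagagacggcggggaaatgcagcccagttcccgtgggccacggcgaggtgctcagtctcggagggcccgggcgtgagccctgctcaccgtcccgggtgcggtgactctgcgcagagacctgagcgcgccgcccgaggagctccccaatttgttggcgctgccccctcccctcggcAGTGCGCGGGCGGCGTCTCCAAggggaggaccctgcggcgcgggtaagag
The 300 bases have a GC content of 73.7% and 33 CG pairs, more than 91.4% of the promoters of the same length in the table. RefSeq promoters were matched for 4 of the 8 genes.

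Col4a1 and Col4a2 were in the same state in 666 of 698 cells (95.4%) over all groups. Col4a1 had an RT of 0.679, 0.690, 0.515, 0.579, 0.706, 0.701 and 0.561 from zygote to ICM, and Col4a2 differed from it by 0.0172 on average over the 14 groups. Col4a1 was latest in 4-cell embryos and Col4a2 in the ICM, and both were higher in zygotes, 2-cell, 16-cell and morula embryos. Leaving out the 11 cells of the 8-cell group collected at 72 h, RT of Col4a1 in 8-cell embryos was 0.655.

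From the 2-cell to the morula stage the median shift of the 8 genes was smaller than that of all genes, while Gata6 shifted about as much as the median gene and Foxa2 moved the other way. In morulae the median RT of the 8 genes was 0.684, against 0.642 in 2-cell embryos. The median difference of morula minus 2-cell was 0.0337 for the 8 genes and 0.187 for all genes. None of the 8 was earlier by 0.2, where 46.2% of all genes were, and Foxa2 was later by 0.2 (-0.319), as were 2.98% of all genes. Gata6 came closest to an earlier call (0.194), and its share of cells and that of Sox17 had intervals that did not overlap between the stages: 63.8% (48.5 to 77.3) of morula cells and 31.7% (20.6 to 44.7) of 2-cell cells for Sox17. The mean score was also higher, at 58 in morulae and 49.3 in 2-cell embryos, and its part in these shares was not tested. By the raw share of cells, 66.4% of all genes were earlier by 0.2 in morulae. How many of all genes had intervals apart was not counted. Sox7, Pdgfra, Col4a1 and Col4a2 differed by 0.0205, 0.00946, 0.0112 and 0.0468. The fall of Foxa2 had a local extent: a run of 16 bins (0.8 Mb) around the gene was later in morulae by 0.2 or more, with a largest difference of -0.412, and with flanks of 1 Mb the difference was -0.134.

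**Figure D3:**
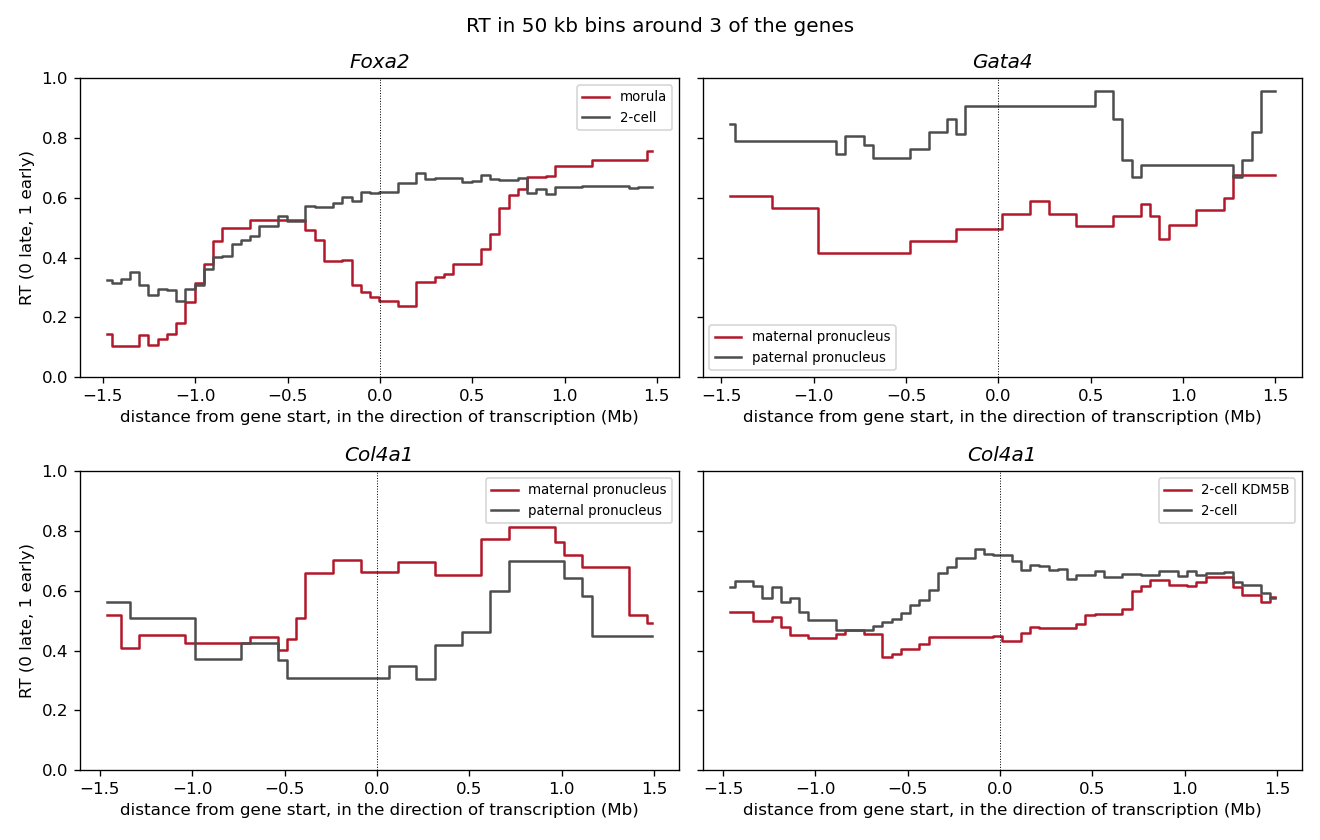
RT in bins of 50 kb by distance from the gene start in Mb, positive in the direction of transcription, for Foxa2 in morula and 2-cell embryos, for Gata4 and Col4a1 in maternal and paternal pronuclei, and for Col4a1 in 2-cell embryos with KDM5B and without. At Foxa2 the bin of the gene stood at 0.256 in morulae, below the 1 Mb on either side, against 0.621 in 2-cell embryos.

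Much of the change at Foxa2 lay between the 4-cell and 2-cell stages. RT was 0.409 in 4-cell and 0.626 in 2-cell embryos, a difference of -0.217. It was replicated in 18 of 55 4-cell cells (32.7%, 20.7 to 46.7), against 38 of 63 2-cell cells, with intervals that do not overlap. The mean score was lower in 4-cell embryos (40.8 against 49.3), and its part in this share was not tested. By the raw share of cells, 7.71% of all genes were later by 0.2 in 4-cell embryos. How many of all genes had intervals apart in this comparison was not counted. Foxa2 was the only member later by 0.2 in RT in this comparison, where 2.08% of all genes were later, and none was earlier, where 12.9% of all genes were. The difference ranged from -0.247 to -0.139 as collection hours were left out in turn, and it was under 0.2 in size without the 4-cell cells of 53 h. It was also under 0.2 with bins of the gene only (-0.187) and with flanks of 1 Mb (-0.133). Between morula and ICM no member passed 0.2 in either direction, where 29.8% of all genes were later and 1.83% earlier in the ICM: the median difference was -0.0907 for the 8 genes and -0.135 for all genes. Foxa2 had the highest value (0.158). Between the later ICM cells (up to 104 h) and those of 96 to 100 h no member passed 0.2 either, where 7.01% of all genes were later and 0.628% earlier, and the collagen genes differed most (0.102 and 0.104). From zygotes to 2-cell embryos the members differed by -0.0938 (Gata6) to 0.0855 (Pdgfra), and none passed 0.2, where 0.795% of all genes were later and 0.211% earlier.

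Other lists were set beside the members with no test of the difference. Of 18 other primitive endoderm genes, 8 were earlier by 0.2 in morulae than in 2-cell embryos and none was later, with a median difference of 0.196. Of 11 epiblast genes 6 were earlier (median 0.242), and of 12 relatives and partners of the members 6 were (median 0.136). Over all genes 46.2% were earlier and 2.98% later (median 0.187), so the counts earlier in these lists were near the share of all genes. In the ICM the earliest and latest of the primitive endoderm list were Lamb1, a laminin chain (0.791), and Nid2, a basement membrane linker (0.383). Among epiblast genes they were Prdm14 (0.710) and Pou5f1, which encodes OCT4 (0.436), and among relatives and partners Foxa1 (0.672) and Pdgfa (0.492). Foxa1, a paralogue of Foxa2, had an RT of 0.641 in morulae and 0.63 in 2-cell embryos.

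Fertilization mode and parental origin were examined in the zygote. Maternal genomes were (C57BL/6J x CBA)F1 and paternal ones DBA/2J, so parental origin and strain cannot be told apart. In IVF zygotes compared with natural zygotes no member passed 0.2, where 5.72% of all genes were later and 1.29% earlier. Gata6 came closest, with 0.478 in IVF zygotes and 0.676 in natural zygotes. In parthenotes compared with IVF zygotes no member passed 0.2 either, where 2.37% of genes were later and 1.76% earlier, but the median difference of the 8 was -0.128 against -0.00248 for all genes. Gata4, Sox7, Foxa2, Col4a1 and Col4a2 were lower in parthenotes by 0.123 to 0.165. Gata6 was higher (0.619 in parthenotes and 0.478 in IVF zygotes), as were Sox17 (by 0.0798) and Pdgfra (by 0.0299). Gata4 and Sox7 are neighbours, as are Col4a1 and Col4a2, so the median of the 8 counts these 2 regions more than once. The labels of both groups have 6 collection hours in common, with 31 parthenotes and 57 IVF zygotes. At these hours Sox7 (-0.202), Col4a1 (-0.28) and Col4a2 (-0.305) were later by 0.2, as were 7.81% of all genes. The collagen genes stand for a single region. By the methods, time was counted from activation for parthenotes and from insemination for IVF zygotes. Equal hours therefore need not be equal times on a common clock, and the groups are matched by label only.

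Of the comparisons made, the pronuclei gave the largest differences of the members and had the fewest cells. Here too, parental origin and strain cannot be told apart. Gata4 and Sox7 were later in maternal pronuclei, with RT of 0.522 and 0.436 there and 0.893 and 0.771 in paternal pronuclei. Col4a1 and Col4a2 were earlier in maternal pronuclei, with 0.676 and 0.669 there and 0.337 and 0.316 in paternal pronuclei. Thus 2 members were later by 0.2, where 10.3% of all genes were, and 2 were earlier, where 4.6% were, and each pair stands for a single region. The methods state that both pronuclei of a zygote were processed, but whether equal numbers in the labels mark the same zygote is not known. Over the 10 same-numbered pairs, by the raw share of cells, the difference was 0.00667 for Gata4, so its call was lost and its sign turned, and -0.293 for Sox7, 0.294 for Col4a1 and 0.320 for Col4a2. Over all pronuclei the raw share gave -0.23 for Gata4. At Gata4 and Sox7 the run of bins past 0.2 covered 1.9 Mb and included both genes, and at the collagen genes it covered 0.85 Mb, where flanks of 1 Mb left differences of 0.189 for Col4a1 and 0.185 for Col4a2. Gata4 was replicated in 14 of 21 maternal pronuclei (66.7%, 43 to 85.4) and 15 of 17 paternal pronuclei (88.2%, 63.6 to 98.5), and Col4a1 in 15 of 21 maternal (71.4%, 47.8 to 88.7) and 7 of 16 paternal pronuclei (43.8%, 19.8 to 70.1), so all of these intervals overlap. In each group 5 pronuclei had a score under 50: Gata4 was replicated in 1 of 5 maternal and 5 of 5 paternal ones, and Col4a1 in 3 of 5 maternal and 0 of 5 paternal ones. At scores of 50 to 90 the shares were closer, with Gata4 replicated in 13 of 16 maternal and 10 of 12 paternal pronuclei and Col4a1 in 12 of 16 maternal and 7 of 11 paternal ones. By the study's methods, most pronuclei had the allelic read ratio of their labelled parent and those with the opposite sign were exchanged, and whether the labels stand before or after this step is not known. RT of Gata4 was 0.643 in parthenotes and 0.717 in whole zygotes, and RT of Col4a1 was 0.462 in parthenotes and 0.679 in whole zygotes.

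**Figure D4:**
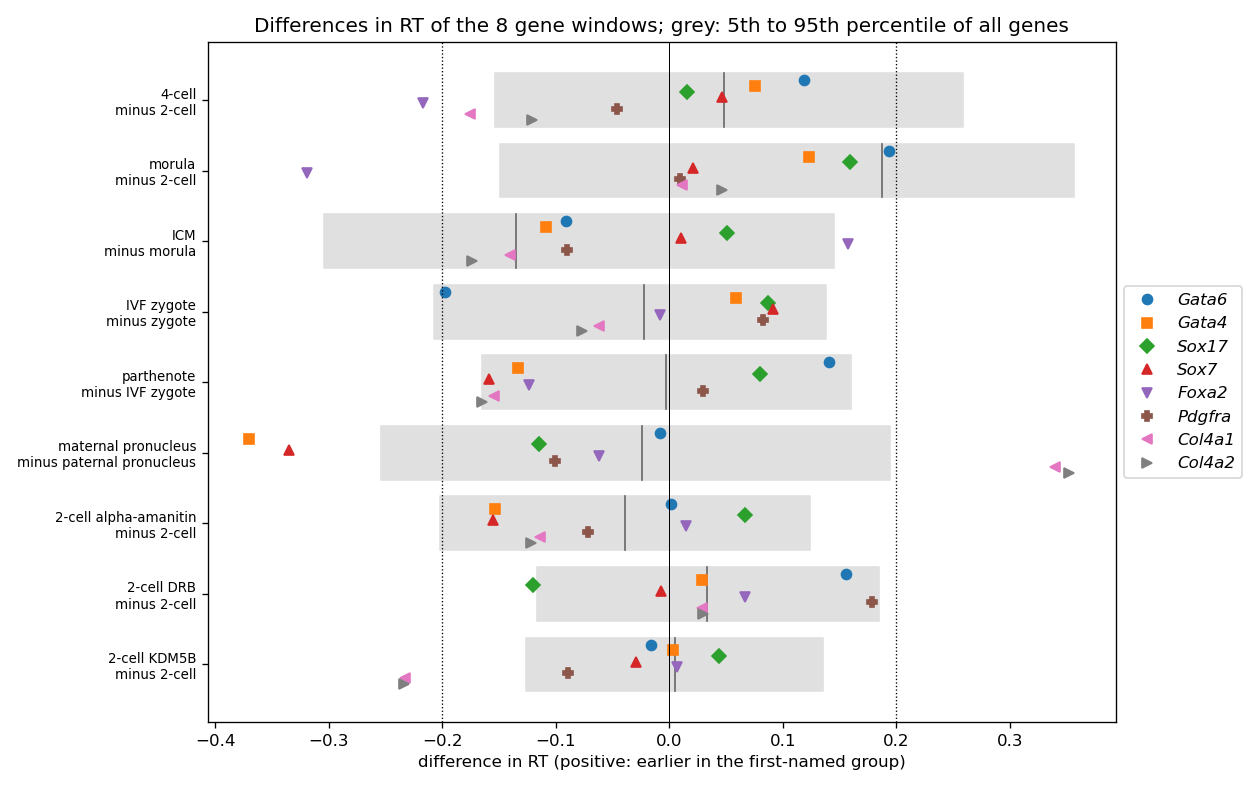
Difference in RT of each gene window in 9 comparisons, positive where the group named first replicates earlier, with the 5th to 95th percentile of all genes in grey, their median as a grey line and 0.2 in either direction dotted. Foxa2 in morulae, Gata4, Sox7, Col4a1 and Col4a2 in pronuclei, and the collagen genes with KDM5B lie outside both the dotted lines and the grey range. Foxa2 in 4-cell embryos (-0.217) also lies outside the grey range, which ends at -0.153, and just past the dotted line.

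With KDM5B the collagen genes replicated later. RT was 0.457 with KDM5B and 0.690 without for Col4a1, and 0.449 with KDM5B and 0.683 without for Col4a2. Col4a1 was replicated in 25 of 56 KDM5B cells (44.6%, 31.3 to 58.5) and in 43 of 61 control cells (70.5%, 57.4 to 81.5), and these intervals overlap slightly. The lower share was seen in both parts of S phase, with 7 of 24 KDM5B cells and 17 of 31 control cells at scores under 50, and 18 of 32 and 26 of 30 at scores of 50 to 90. These 2 were the members later by 0.2, where 0.672% of all genes were, and none was earlier, where 0.878% were. The other 6 members differed by -0.0893 (Pdgfra) to 0.0442 (Sox17). The run of later bins covered 0.6 Mb, and at the 4 collection hours common to both groups the difference of Col4a1 was -0.315. With flanks of 1 Mb in place of 0.3 Mb the differences were -0.13 for Col4a1 and -0.135 for Col4a2, short of 0.2.

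With DRB no member passed 0.2, where 3.19% of all genes were earlier and 0.466% later. The nearest were Pdgfra (0.836 with DRB and 0.657 without) and Gata6 (0.737 and 0.582), both earlier, and Sox17 (0.262 and 0.382), later. Gata6 was replicated in 54 of 67 DRB cells (80.6%, 69.1 to 89.2) and 35 of 63 control cells (55.6%, 42.5 to 68.1), intervals that do not overlap. The mean score was also higher, at 58.8 with DRB and 49.3 without, and its part in this share was not tested. By the raw share of cells, 12.2% of all genes were earlier by 0.2 with DRB. How many of all genes had intervals apart with DRB was not counted. Sox17 was replicated in none of the 14 DRB cells with a score under 50, a share of up to 23.2% by the exact interval, and in 6 of 31 control cells. At scores of 50 to 90 Sox17 was replicated in 25 of 53 DRB cells and 14 of 32 control cells. Over all cells its share was 37.3% with DRB and 31.7% without, but the mean score was also higher with DRB. The share of its window minus the mean score was -23.2 points with DRB and -12.3 without. With α-amanitin no member passed 0.2, where 5.26% of all genes were later and 0.937% earlier. Gata4, Sox7, Col4a1 and Col4a2 were lower by 0.114 to 0.156, with 0.546 for Gata4 with α-amanitin and 0.700 without, but at the hours common to both groups the difference was -0.102 for Gata4, -0.0255 for Sox7 and -0.132 for Col4a1 and for Col4a2. Pdgfra differed by -0.0713 over all hours and by -0.147 at the common hours. All 3 treatments share the control cells, so their differences are not independent of each other.

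**Figure D5:**
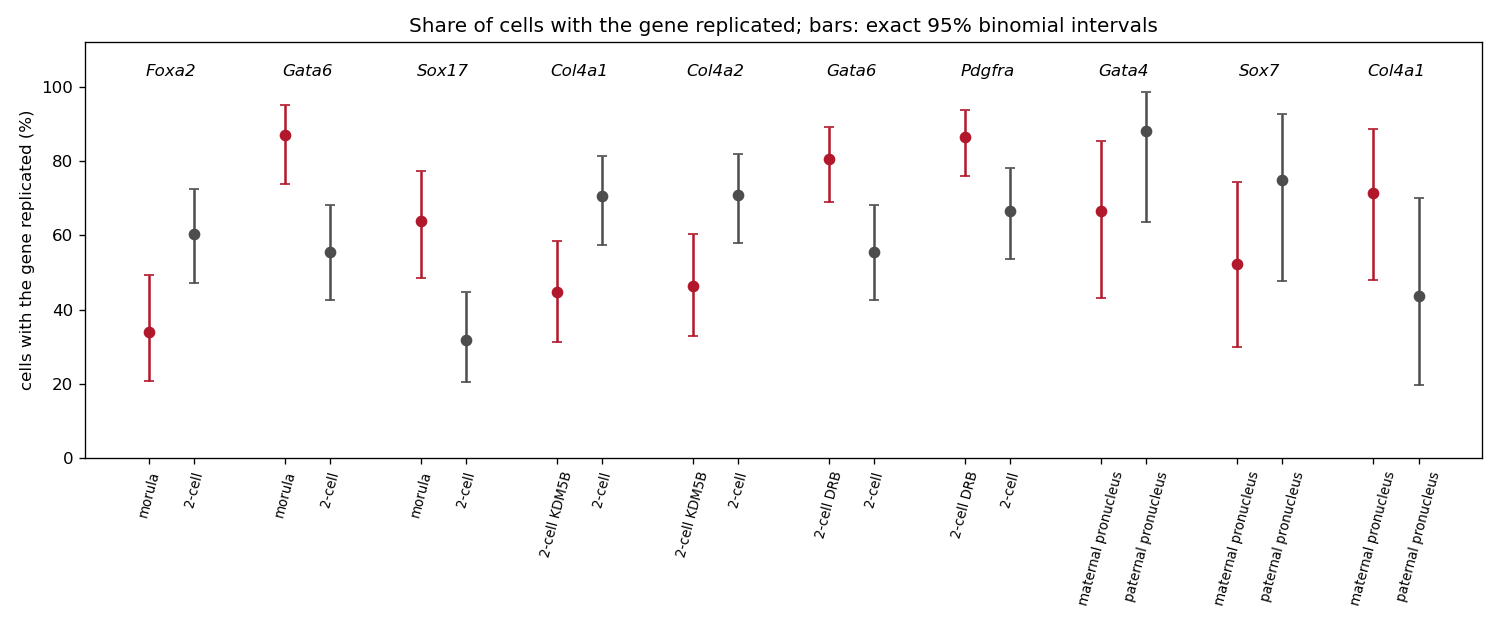
Share of cells with the gene replicated (points, %) and exact 95% binomial intervals (bars) in pairs of groups, with morula, KDM5B, DRB and maternal pronuclei in red and 2-cell embryos and paternal pronuclei in dark grey. The intervals are apart for Gata6 and Sox17 in morulae and for Gata6 with DRB, and overlap in the other pairs. The mean score was also higher in morulae and with DRB than in 2-cell embryos, and how many of all genes had intervals apart was not counted.

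The gene on a chromosome without members with the most similar RT over the 14 groups, by mean absolute difference, was Blnk for Gata6 (0.037), Dpp8 for Gata4 (0.0373), Efcab1 for Sox17 (0.0436), Fam229b for Sox7 (0.0491), Mef2c for Foxa2 (0.0407), Btbd10 for Pdgfra (0.042), Wwc1 for Col4a1 (0.0502) and Pank3 for Col4a2 (0.056). The median gene differed from each member by 0.121 to 0.174. Among unlinked members the closest were Gata6 and Pdgfra (0.079), and the farthest were Gata4 and Sox17 (0.242). Of 45 morula cells with all genes called, 12 had all 8 replicated and 2 had none, and of 60 2-cell cells 4 had all 8 and 1 had none.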

How the data were processed

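Single-cell Repli-seq was read from 14 deposited tables with 733 cells of 1016 labelled samples. The authors deposited binary replication states (1 replicated, 0 not replicated, or missing) for each bin and cell, with no count, ratio or depth. By the study's methods and the submitters' processing notes, reads were aligned with Bowtie2 2.3.5, and filtered with SAMtools 1.9, and bedtools 2.29.0 is named. Counts in 50 kb bins were divided by the bin's average over the stage, masked, centred and scaled per cell, smoothed with a running median, segmented and split by a mixture model. Smoothing makes neighbouring bins alike, so bins of a window are not independent. Read totals of the cells were not used.

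RT of a bin was the mean over 16 intervals of replication score, 35 points wide and 4.33 points apart, of the percent-replicated cells as a fraction, and RT of a gene the mean over its window. A gene counted as replicated in a cell by the majority of its own bins, with ties left out. Genes were placed by the GENCODE annotation of GRCm38 in the reference. Python 3.11.15, NumPy 2.4.6, pandas 2.3.3, SciPy 1.17.1 and Matplotlib 3.10.9 were used, and the RT steps were tested on simulated data. No test was made, since each group is a single sample. The members and lists were chosen with earlier results of these data known. Named genes are the 8 members, the earliest and latest gene of each of 3 lists in the ICM, Kit, Kdr and Pdgfa, and the most similar gene on another chromosome for each member. No pair of cells in a group shared over 99% of its states. All columns were mapped to a sample. Alternatives were the raw share of cells, other windows, scores of 20 to 80, leaving out 52 cells that failed the study's quality table, shared hours, each collection hour left out, and thresholds of 0.1 and 0.3. That table did not list 219 cells, which were kept: all 17 paternal pronuclei, 42 α-amanitin, 67 DRB and 56 KDM5B cells, and 37 ICM cells. In the treatment comparisons this alternative therefore left out only control 2-cell cells (8), and in the pronuclei only a maternal one. Between ICM and morula it left out only morula cells (5).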

Additional observations from a re-analysis of the deposited data

How the results depend on the processing

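Of the 8 member differences past 0.2, only that of Sox7 in pronuclei was past 0.2 under all alternatives. The differences in pronuclei had only 6 alternatives, against 12 to 19 for those of Foxa2 and with KDM5B. Pronuclei have a single collection label, so no hour could be left out and no shared hours compared. With flanks of 1 Mb no member was later in morulae (0, Foxa2 -0.134, with 2.08% of all genes later), earlier in maternal pronuclei (0, Col4a1 0.189 and Col4a2 0.185, with 2.36% of all genes earlier) or later with KDM5B (0, Col4a1 -0.13 and Col4a2 -0.135, with 0.199% of all genes later). With a replicate block over 10 same-numbered pronuclei pairs and the raw share, Gata4 turned to 0.00667 and 1 member was later in maternal pronuclei. The deviations of same-numbered pronuclei had a median correlation of 0.00717, and whether the numbers pair pronuclei of the same zygote is not known. In the following counts the percentage in brackets is the share of all genes in the same direction and setting. Members later in 4-cell than 2-cell embryos were 2 with the raw share (7.71%) or without failed cells (2.45%), 0 with bins of the gene only (3.07%), flanks of 1 Mb (0.858%) or past 0.3 (0.133%), and 3 past 0.1 (12.4%), with 1 earlier past 0.1 (35.9%). Members earlier in morulae than 2-cell embryos were 2 with the raw share (66.4%), 1 with bins of the gene only (47.3%), scores of 20 to 80 (47.5%) or without failed cells (49.3%), and 3 past 0.1 (71.7%). Between ICM and morula 1 was later without failed cells (35%) or with ICM cells of 96 to 100 h only (18.6%), and past 0.1 there were 3 later (58.4%) and 1 earlier (9.18%). In IVF zygotes Gata6 was the 1 later with bins of the gene only (7.29%), scores of 20 to 80 (6.65%) or past 0.1 (23.4%). In parthenotes 1 was later with the raw share (3.41%), 3 with shared hours (7.81%) and 5 past 0.1 (16.1%), with 1 earlier past 0.1 (16.3%). Past 0.1, 4 were later in maternal pronuclei (29%), 4 were later with α-amanitin (27.5%), 2 were earlier (25.6%) and 1 later (7.25%) with DRB, and 2 were earlier in the later ICM cells than in those of 96 to 100 h (6.43%). With the raw share 2 were earlier with DRB (12.2%), and past 0.3 the count later with KDM5B was 0 (0.0343%). As each collection hour was left out in turn, counts ranged from 0 to 1 (earlier with DRB, earlier in morulae than 2-cell embryos, later in ICM, later in IVF zygotes), from 1 to 2 (later in 4-cell embryos) and from 0 to 2 (later in parthenotes). The median difference of the 8 genes ranged from -0.2004 to 0.212 for 16-cell minus 8-cell and from -0.0983 to 0.279 for morula minus 16-cell, with these ends reached without the 16-cell cells of 80 h or of 77 h. Causes were not tested. The number of cells limits all values, most of all in the pronuclei.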
